A study of Mus musculus with 6 samples.

Results

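The genes described here mark tissue-resident or alternatively activated macrophages, which are states of these phagocytes linked to tissue upkeep and to the cytokines IL-4 and IL-13. They were picked by symbol, with earlier results of these data known, and all 10 were found among the 21760 gene symbols of the count table: Retnla, Mgl2, Clec10a, Mrc1, Siglec1, Cd163, Folr2, Lyve1, F13a1 and Maf. All 10 passed the filter on low counts, as did 15560 symbols in all. The RNA came from macrophages isolated by flow sorting from tumours of MC38, a mouse colon carcinoma line, that had grown under the skin of C57BL6 mice for 16 days. In the Xkr8 KO groups the tumour cells were 1 of 2 knockout clones (KO clone 1 and KO clone 2), and in the wild type (WT) group they were not knocked out. There were 2 libraries for KO clone 1, 2 for KO clone 2 and 2 for WT, each from its own mouse. Xkr8 is a scramblase that brings phosphatidylserine to the surface of dying cells, where phagocytes recognise it, and the study's title names the blockade of that exposure as its subject. No further treatment was given, and the mice's age, their sex and the markers used for sorting are not stated in the labels. Each KO line is 1 clone, so within a line the loss of Xkr8 and any other trait of that clone cannot be separated.

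IL-4 and IL-13 act through a shared receptor chain, Il4ra, and the transcription factor Stat6, which switches on genes such as Retnla, Mrc1 and the galactose-type lectins Mgl2 and Clec10a. Other markers of the set, namely Lyve1, Folr2 and Cd163, are known from resident macrophages that lie along blood vessels and under epithelia, and the transcription factor Maf is known to sustain that state. In tumours such cells stand beside macrophages that have developed from incoming monocytes.

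The upstream sequences of 3 members are shown because Retnla had the largest difference between KO and WT, Mgl2 the smallest p and Mrc1 almost no difference. RefSeq (GRCm38.p6) gave 300 bases around a start site, 250 before it and 50 after, for 6 of the 10 members. The 3 promoters lie at chr16:48842359-48842658 (Retnla), chr11:70130107-70130406 (Mgl2) and chr2:14229164-14229463 (Mrc1), all on the plus strand. Capitals mark matches, on either strand, to the letters searched: TTC and GAA with any 4 bases between (STAT6), TTGCNNAA (C/EBP), GAGGAA (PU.1, a macrophage lineage factor), TGCTGA (a half-site of Maf proteins) and TATAAA (the TATA box).
Retnla: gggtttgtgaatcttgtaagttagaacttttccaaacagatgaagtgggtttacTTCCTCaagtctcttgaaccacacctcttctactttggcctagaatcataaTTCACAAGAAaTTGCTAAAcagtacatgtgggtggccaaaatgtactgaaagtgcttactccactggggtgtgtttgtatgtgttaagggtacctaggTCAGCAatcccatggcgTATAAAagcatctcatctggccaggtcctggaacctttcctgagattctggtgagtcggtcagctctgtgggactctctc
Mgl2: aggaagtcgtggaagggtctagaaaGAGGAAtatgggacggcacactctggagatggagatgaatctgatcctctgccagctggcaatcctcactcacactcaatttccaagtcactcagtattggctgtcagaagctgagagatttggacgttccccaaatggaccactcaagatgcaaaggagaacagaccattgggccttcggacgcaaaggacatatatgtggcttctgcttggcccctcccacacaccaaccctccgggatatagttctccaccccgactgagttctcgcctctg
Mrc1: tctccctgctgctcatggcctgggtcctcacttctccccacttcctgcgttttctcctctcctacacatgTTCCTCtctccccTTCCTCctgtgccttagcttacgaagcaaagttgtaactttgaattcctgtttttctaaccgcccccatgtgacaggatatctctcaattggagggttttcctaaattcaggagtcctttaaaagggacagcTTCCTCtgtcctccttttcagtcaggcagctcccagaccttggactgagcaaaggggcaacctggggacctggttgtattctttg
The Retnla sequence held the STAT6 letters from base -145 to -136 before its start site, the C/EBP letters from -134 to -127, the PU.1 letters from -196 to -191, a Maf half-site from -47 to -42 and a TATA box from -30 to -25. The STAT6 match is its own reverse pattern and was counted once. Of 32851 promoters of the same length, 6.95% held the STAT6 letters, 10.8% the C/EBP letters, 28.3% the PU.1 letters, 19.5% the Maf half-site and 13.6% the TATA box. In these windows Mgl2 had 1 match, to PU.1, and Mrc1 had 3, all to PU.1. A match is a run of letters, and binding was not measured.

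The library of WT mouse 2 differed from the rest in depth and content. It held 20038047 estimated reads against 37090034 to 40022755 in the other 5, and the ribosomal precursor Rn45s took 24.6% of it against 1.46% to 7.12%. Its Pearson correlation with the other libraries, on log2(CPM + 1), was 0.932 to 0.946, and among the other 5 it was 0.981 to 0.996. The macrophage genes chosen as a check, such as Adgre1 and Csf1r, were present in every library, with sums between 10541 and 12407 CPM in KO libraries, against 9744 and 12687 CPM in WT libraries. Of these 12 genes, 6 were positive and 6 negative in KO over WT, with a median log2 fold change of 0.02, and 0 passed in edgeR. Every KO library lay above both WT libraries for 3 (12.9% of all genes): Fcgr1 (0.74 ± 0.16), Lyz2 (0.66 ± 0.24) and Adgre1 (0.57 ± 0.20). DESeq2 called Fcgr1 higher. Xkr8 in the macrophages, which come from the host and not from the tumour clones, ranged between 4.14 and 6.97 CPM in KO libraries, against 6.89 and 6.05 CPM in WT libraries (log2 fold change -0.24 ± 0.27, adjusted p = 0.637), which does not check the labels. CPM is the count scaled to library sizes that TMM had corrected for the makeup of each library.

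All 10 members had a positive log2 fold change in KO over WT libraries, with a median of 1.09 (log2), against 0.00 over all genes tested, of which 50.2% were positive. The median of the members was 0.70, with 8 of 10 positive, without WT mouse 2, and 2.0, with 10 positive, without WT mouse 1. None passed edgeR's quasi-likelihood test at an adjusted p of 0.05 over all genes. That test called 20 genes higher (0.129% of those tested) and 1 lower (0.00643%). At an unadjusted p under 0.05, 4 members (Mgl2, Clec10a, Retnla and Maf) differed, against 13.6% of all genes. DESeq2 called 2 members higher, Mgl2 and Clec10a, and 2.31% of all genes, and edgeR with no filter on low counts called 1, Mgl2, and 0.479% of all genes. No member was called lower. Every KO library lay above both WT libraries for the same 4 members, as it did for 12.9% of all genes tested, and no member had every KO library under both (10.7% of all genes). With CPM on plain library totals the number was again 4 (8.73% of all genes), with Siglec1 in place of Maf. It was 9 without WT mouse 1 (41.4% of all genes), 7 without KO clone 2 mouse 2 (14.2%) and 5 without WT mouse 2 (23.5%). Without any other single library it was 4 (13.8% to 19.4%). In these bulk samples, fewer cells of a type and less RNA per cell cannot be told apart.

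**Figure D1:**
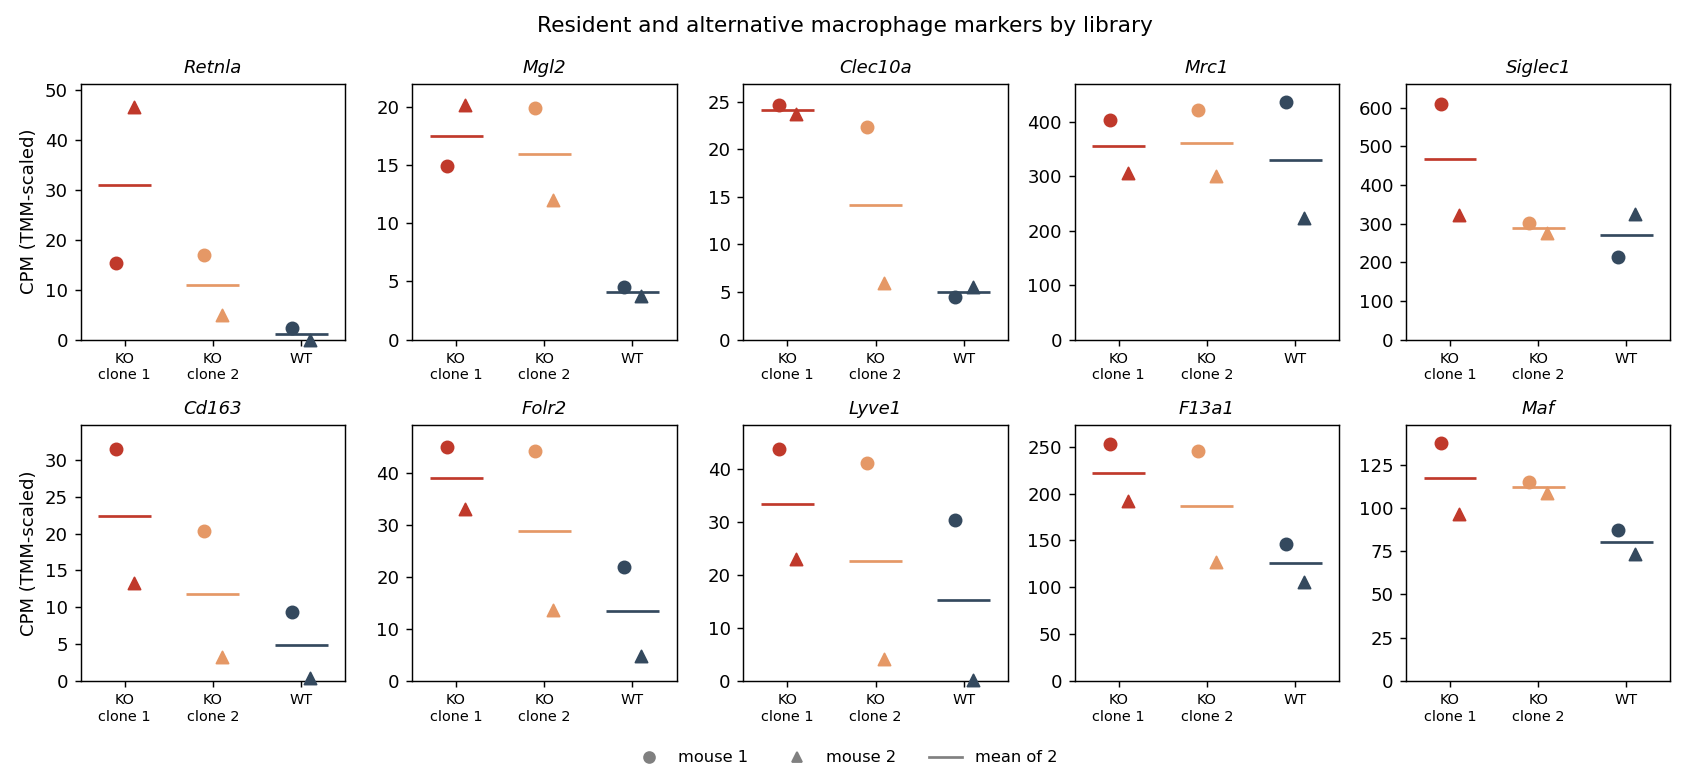
Level of each member in CPM (vertical axis, linear from 0) in macrophages from KO clone 1, KO clone 2 and WT tumours; a circle is mouse 1, a triangle mouse 2 and the line their mean. Mgl2, Clec10a, Retnla and Maf have all 4 KO libraries above both WT libraries, while KO clone 2 mouse 2 and WT mouse 2 are the lowest for Lyve1, Cd163 and Folr2.

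Retnla, which encodes the secreted protein RELM-alpha and is a standard marker of IL-4 and IL-13 action in mouse, had the largest difference. It stood at 15.4 and 46.4 CPM in KO clone 1, at 16.9 and 4.95 CPM in KO clone 2, and at 2.35 and 0 CPM in WT libraries. The groups did not overlap, and KO clone 1 mouse 2 was far above the others. In WT mouse 2 Retnla had 0 counts, which allows a level of up to 0.206 CPM at 3 counts, for counting error only. Its averages were 20.9 ± 17.8 CPM in KO (SD, n = 4) and 1.17 ± 1.66 CPM in WT (SD, n = 2). The log2 fold change over WT was 3.94 ± 1.24 (SE) for all KO libraries, with an adjusted p of 0.291 in edgeR. Without WT mouse 2 it was 3.13 ± 1.17. Of the 31-base words of Retnla transcripts, 5.45% also occur in its relative Retnlg, which itself had between 0.391 and 0.993 CPM in KO libraries, against 0.0878 and 0 CPM in WT libraries.

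The paired lectin genes Mgl2 and Clec10a, which encode galactose-type C-type lectins of macrophages and dendritic cells, both averaged about 4 times more in KO libraries, though neither passed the test in edgeR. Mgl2 had 14.9 and 20.1 CPM in KO clone 1, 19.9 and 12.0 CPM in KO clone 2, and 4.50 and 3.71 CPM in WT libraries. Its lowest KO library thus exceeded the higher WT library by a wide margin. The averages were 16.7 ± 3.97 CPM in KO (SD, n = 4) and 4.11 ± 0.557 CPM in WT (SD, n = 2). The log2 fold change was 2.01 ± 0.30 (SE), a fold of 4.04, with an adjusted p of 0.0584 in edgeR. Mgl2 was the member with the smallest p, and its value moved little with either WT library left out. It was 1.87 (adjusted p = 0.0922) without WT mouse 2 and 2.18 (adjusted p = 0.00491) without WT mouse 1, and without any 1 KO library the adjusted p was between 0.144 and 0.214.

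Clec10a had 24.6 and 23.7 CPM in KO clone 1, 22.3 and 5.94 CPM in KO clone 2, and 4.43 and 5.50 CPM in WT libraries. KO clone 2 mouse 2 was therefore nearly level with WT, while the other 3 KO libraries were close together. Clec10a averaged 19.1 ± 8.84 CPM in KO (SD, n = 4) and 4.97 ± 0.754 CPM in WT (SD, n = 2). The log2 fold change of KO over WT was 1.95 ± 0.57 (adjusted p = 0.277, edgeR), and 2.25 (adjusted p = 0.0981) without KO clone 2 mouse 2. DESeq2 gave adjusted p of 6.76e-08 for Mgl2 and 0.00839 for Clec10a, and over all alternatives the adjusted p reached 0.214 for Mgl2 and 0.593 for Clec10a.

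The 2 lectin genes are neighbours on the plus strand of chromosome 11 (GRCm38, GENCODE M21). Mgl2 runs from 70130329 to 70137550 and Clec10a from 70156197 to 70170834, with 18646 bases between them. They share sequence: 19.3% of the 31-base words of Mgl2 transcripts occur in Clec10a transcripts, and 13.7% the other way round. How the authors' counting divided such reads is not stated, so the level of each gene is less certain than their sum. Together they had 39.5, 43.8, 42.2 and 17.9 CPM in KO libraries and 8.94 and 9.22 CPM in WT libraries, so their sum separated the genotypes too.

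Mrc1, the mannose receptor CD206 and the best known surface marker of alternative activation, did not separate the genotypes. It had 404 and 307 CPM in KO clone 1, 422 and 301 CPM in KO clone 2, and 438 and 224 CPM in WT libraries, with the highest and the lowest library both in WT. The log2 fold change was 0.11 ± 0.30 with an adjusted p of 0.839 (edgeR), and its sign turned to -0.31 ± 0.22 without WT mouse 2. Siglec1, the sialic acid receptor CD169 of resident macrophages, which interferon also induces, had 611 and 323 CPM in KO clone 1, 301 and 276 CPM in KO clone 2, and 213 and 326 CPM in WT libraries. KO clone 1 mouse 1 was far above the others, and WT mouse 2 lay within the range of the KO libraries. The log2 fold change of Siglec1 was 0.49 ± 0.37 (adjusted p = 0.5), and 0.16 without KO clone 1 mouse 1.

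Lyve1, Cd163 and Folr2 differed widely between the mice of KO clone 2 and between the mice of WT. Lyve1, a hyaluronan receptor of perivascular macrophages and of lymphatic endothelium, had 43.8 and 23.0 CPM in KO clone 1, 41.1 and 4.18 CPM in KO clone 2, and 30.3 and 0.0688 CPM in WT libraries, the last from a single count. WT mouse 1 lay inside the range of the KO libraries and WT mouse 2 far under it. Cd163, the scavenger receptor for haemoglobin bound to haptoglobin, had 31.5 and 13.3 CPM in KO clone 1, 20.3 and 3.29 CPM in KO clone 2, and 9.40 and 0.413 CPM in WT libraries. Folr2, a folate receptor whose exons overlap those of the predicted gene Gm10602, had 44.8 and 33.1 CPM in KO clone 1, 44.1 and 13.7 CPM in KO clone 2, and 21.9 and 4.75 CPM in WT libraries. All 3 genes were lowest in WT mouse 2 and next lowest in KO clone 2 mouse 2. The library of KO clone 2 mouse 2 held 38263824 reads, and its macrophage genes summed to 12182 CPM. Within KO clone 2 the higher mouse exceeded the lower by 9.82 times for Lyve1, 6.16 times for Cd163 and 3.23 times for Folr2.

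The log2 fold changes of KO over WT were 0.85 ± 1.36 for Lyve1, 1.74 ± 1.11 for Cd163 and 1.33 ± 0.67 for Folr2, with adjusted p of 0.737, 0.451 and 0.4 in edgeR. Without WT mouse 2 they were -0.14, 0.84 and 0.61, so that Lyve1 changed sign. Without WT mouse 1 they were 8.61, 5.37 and 2.85 with adjusted p of 0.0245, 0.0352 and 0.0196, and that fit, whose only WT library is WT mouse 2, called 6 members and 21.9% of all genes higher. Over all alternatives the adjusted p reached 0.990 for Lyve1, 0.896 for Cd163 and 0.859 for Folr2. Of the lymphatic endothelial genes, Ccl21a, Mmrn1 and Reln stayed under 1 CPM in every library. Pdpn and Flt4 did not, and Prox1 was not in the count table. Pdpn gave the most to the endothelial list as a whole. That list had a sum between 117 and 159 CPM in KO libraries, against 116 and 125 CPM in WT libraries. Of 8 endothelial genes tested 4 were positive and 4 negative in KO over WT, with a median of -0.0019, and 0 passed in edgeR, with 2 higher and 0 lower at an unadjusted p under 0.05. Pecam1, which blood endothelium and many leukocytes express, stood at 1.48 ± 0.19 (adjusted p = 0.0525) and was called by DESeq2, while Vwf stood at -0.92 ± 0.46 and Egfl7 at -0.50 ± 0.40. Emcn stood at 3.28 ± 1.19 (adjusted p = 0.33) but stayed under 1 CPM everywhere.

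**Figure D2:**
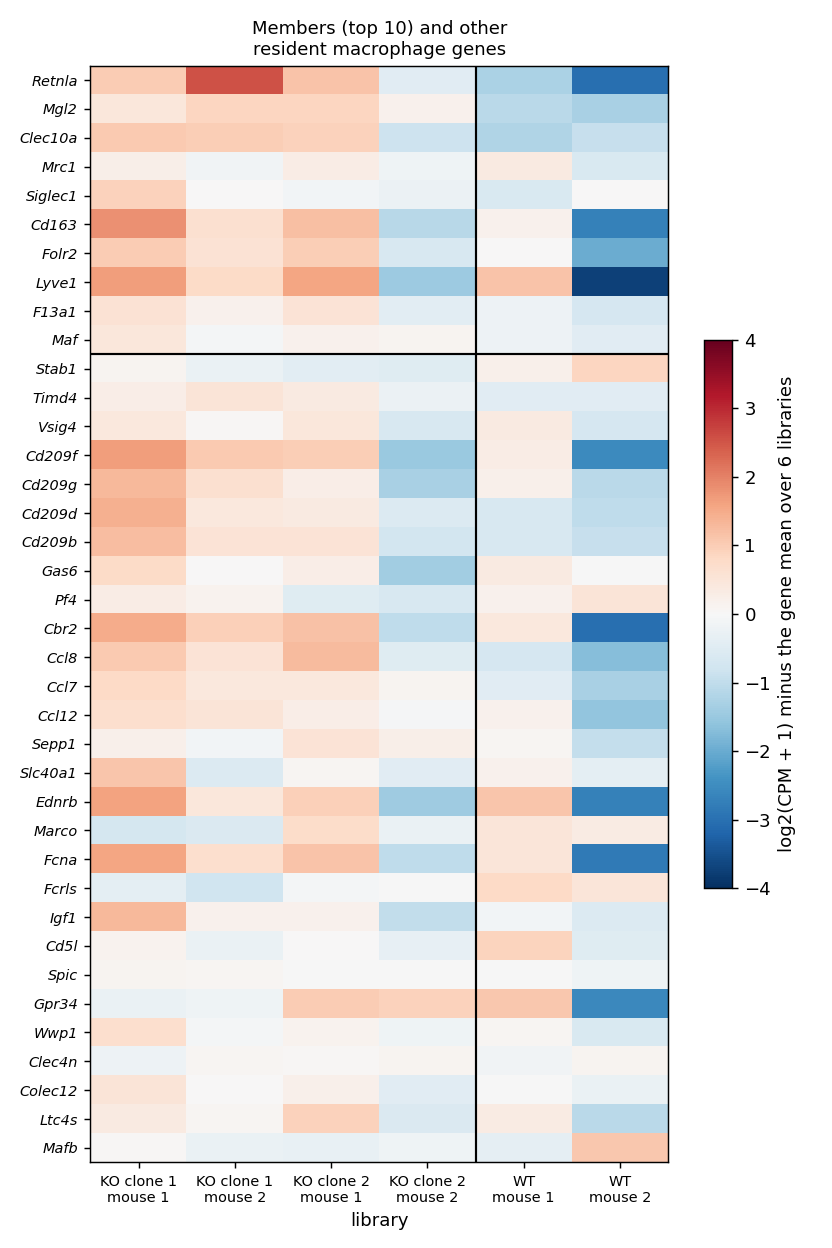
Each row is a gene and each column a library; colour is log2(CPM + 1) minus the mean of that gene over the 6 libraries. The 10 members are above the horizontal line and the 28 other resident macrophage genes below it, with KO libraries left of the vertical line and WT libraries right of it; Lyve1, Cd163, Folr2, Cd209f, Cbr2, Fcna and Ednrb are low in KO clone 2 mouse 2 and WT mouse 2.

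The same 2 libraries were low for other genes of resident macrophages. Of 28 such genes that were tested beside the members, 11 were lowest in WT mouse 2 and next lowest in KO clone 2 mouse 2, as were 5 of the 10 members and 4.81% of all genes tested. The 4 genes that follow were named after their values were seen. Cd209f, a lectin related to DC-SIGN, had 17.4, 11.0, 10.5 and 1.06 CPM in the KO libraries and 6.15 and 0 CPM in the WT libraries. Cbr2, a carbonyl reductase, had 29.8, 20.1, 23.3 and 4.40 CPM in KO and 13.6 and 0.344 CPM in WT. Fcna, a ficolin, had 25.9, 13.3, 18.7 and 3.49 CPM in KO and 11.5 and 0.275 CPM in WT. Ednrb, the endothelin B receptor, had 35.3, 15.5, 21.8 and 3.44 CPM in KO and 24.8 and 0.825 CPM in WT.

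Between the mice of 1 clone, KO clone 2 mouse 1 was over 2 times mouse 2 for 5 members, namely Clec10a, Cd163, Folr2, Lyve1 and Retnla, and for 3.53% of all genes tested. No member was over 2 times higher in mouse 2 (2.31% of all genes). In WT the same held for Cd163, Folr2, Lyve1 and Retnla in mouse 1 over mouse 2, with 18.9% of all genes, and for no member the other way (12.3%), and in KO clone 1 only Cd163 was over 2 times higher in mouse 1 (6.46% of all genes) and Retnla in mouse 2 (2.15%). These are differences between single libraries, with no test.

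F13a1 is the A subunit of coagulation factor XIII, which resident macrophages and monocytes express. It had 253 and 192 CPM in KO clone 1, 246 and 127 CPM in KO clone 2, and 146 and 106 CPM in WT libraries. KO clone 2 mouse 2 lay between the WT libraries, and the other 3 KO libraries lay above both. Its log2 fold change was 0.70 ± 0.31 (adjusted p = 0.373, edgeR). Maf had 138 and 96.5 CPM in KO clone 1, 115 and 109 CPM in KO clone 2, and 87.2 and 73.2 CPM in WT libraries. Its KO libraries all lay above WT, by a small margin in KO clone 1 mouse 2. Exons of F13a1 overlap the predicted gene Gm30489 and those of Maf overlap Gm15655, and how reads there were assigned is not stated. The log2 fold change of Maf was 0.51 ± 0.20 (adjusted p = 0.341), and on plain library totals KO clone 1 mouse 2, at 99.9 CPM, lay just under WT mouse 1, at 101 CPM.

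Scaled to exon length, Mrc1 (56.3 CPM per kb on average in KO and 51.9 in WT libraries) and Siglec1 (52.9 in KO and 37.7 in WT) were the most abundant members in both genotypes. Retnla followed in KO libraries, with a mean of 34.9 and a range of 8.27 to 77.5 CPM per kb, but averaged 1.96 CPM per kb in WT. F13a1, Folr2, Maf and Lyve1 averaged 30.4, 21.9, 13.9 and 9.59 CPM per kb in KO and 18.7, 8.61, 9.73 and 5.20 in WT. Mgl2 (7.98 in KO and 1.96 in WT), Clec10a (6.60 and 1.71) and Cd163 (3.13 and 0.898) were the lowest in KO libraries, and in KO the ranges of neighbours in this order overlapped throughout.

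**Figure D3:**
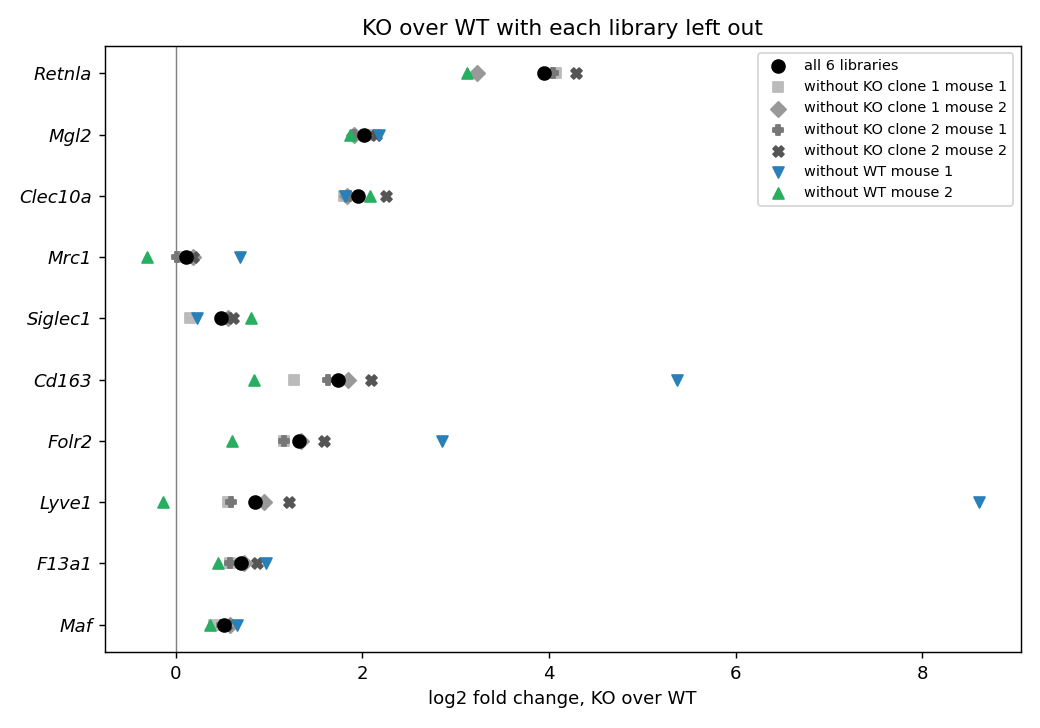
Log2 fold change of KO over WT (horizontal axis) for each member with all 6 libraries (black circle) and with each library left out in turn. Mgl2 and Clec10a stay between 1.81 and 2.25, while Lyve1, Cd163 and Folr2 spread widely when a WT library is left out; Retnla without WT mouse 1 is not drawn because the remaining WT library had 0 counts.

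Each KO clone was set against WT to ask whether the differences were seen with both clones. The clones share the WT libraries, so the paired values are not independent. All 10 members had positive log2 fold changes with either clone, with medians of 1.32 in KO clone 1 and 0.83 in KO clone 2, against 0.02 and -0.03 over all genes tested, of which 51.2% and 48.3% were positive. In KO clone 2 the median was 0.03, with 7 of 10 positive, without KO clone 2 mouse 1, and 1.57 without KO clone 2 mouse 2. It was 0.36, with 8 positive, without WT mouse 2, and 1.74, with 9 positive, without WT mouse 1. In KO clone 1 the median was 0.96, with 9 of 10 positive, without WT mouse 2, and the same without KO clone 1 mouse 1. It was 1.62 without KO clone 1 mouse 2 and 2.20 without WT mouse 1. None passed in edgeR in either clone, where 1 gene (0.00643%) was higher each time, while 3 members had an unadjusted p under 0.05 in each clone (7.1% of all genes in KO clone 1 and 11.3% in KO clone 2). DESeq2 called 2 members in KO clone 1 (1.37% of all genes higher) and 1 in KO clone 2 (2.08%). With no filter on low counts edgeR called 3 members in KO clone 1 (0.492% of all genes higher) and 1 in KO clone 2 (0.804%), and without WT mouse 1 it called 5 (20.8%) and 4 (22.8%). Mgl2 was close in both, at 2.08 ± 0.35 in KO clone 1 and 1.95 ± 0.34 in KO clone 2 (adjusted p = 0.18 and 0.151). Retnla stood at 4.52 ± 1.28 and 3.01 ± 1.22, and Clec10a at 2.29 ± 0.59 and 1.51 ± 0.58. Without KO clone 2 mouse 1 the KO clone 2 values were 1.91 for Retnla, 0.27 for Clec10a and 1.54 for Mgl2. Both libraries of KO clone 1 lay above both WT libraries for 7 members (17.4% of all genes), adding Cd163, Folr2 and F13a1 to the 4 above, and both libraries of KO clone 2 did so for 4 (26.5%). In neither clone did a member have both libraries under WT, as 15.1% of all genes had in KO clone 1 and 25.3% in KO clone 2.

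The contrast of KO clone 2 over KO clone 1 tests whether the clones differ. In it 9 of the 10 members were negative, with a median of -0.50, against -0.02 over all genes, of which 47% were positive. None passed, and none had an unadjusted p under 0.05 (3.23% of all genes). DESeq2 called no member either, and 0.347% of all genes higher and 0.405% lower. Siglec1 stood at -0.70 ± 0.37, Retnla at -1.50 ± 1.11, Clec10a at -0.77 ± 0.56 and Cd163 at -0.93 ± 1.22. Clec10a and Siglec1 had both KO clone 2 libraries under both KO clone 1 libraries, as had 22.7% of all genes, and no member had them above (21.8%). Without KO clone 2 mouse 2, 5 of the 10 members were positive and 5 negative, with a median of 0.06. The median was -1.15 without KO clone 2 mouse 1 and -0.17 without KO clone 1 mouse 1.

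**Figure D4:**
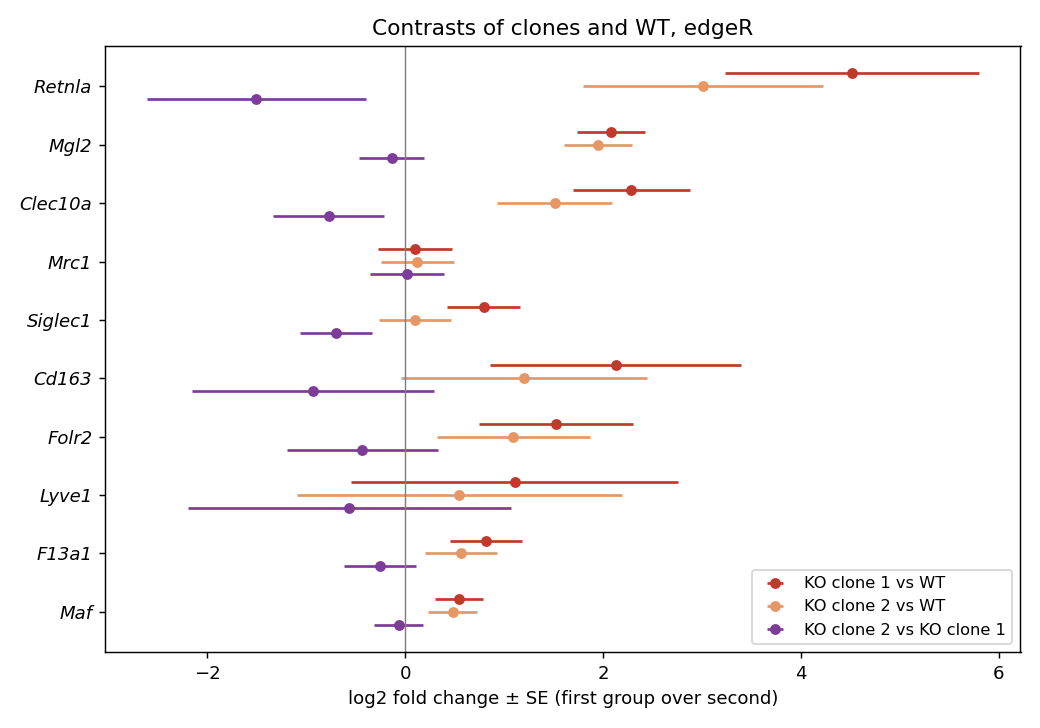
Log2 fold change ± SE from edgeR (horizontal axis, first group over second) for KO clone 1 over WT, KO clone 2 over WT and KO clone 2 over KO clone 1. Mgl2 has the narrowest error among members past 1 on this scale, at 2.08 in KO clone 1 and 1.95 in KO clone 2, and the errors of Lyve1 and Mrc1 span 0 in all 3 contrasts.

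Other genes of the IL-4 and IL-13 pathway were measured from lists ordered by role. The ligands were at the limit of detection: Il4 had no count outside KO clone 1 mouse 1, where it reached 0.0727 CPM, and Il13 reached 0.0254 and 0.0240 CPM in the 2 KO clone 2 libraries and 0 elsewhere. Il4ra ranged between 339 and 397 CPM in KO libraries, against 318 and 517 CPM in WT libraries. Stat6 ranged between 219 and 230 CPM in KO libraries, against 197 and 222 CPM in WT libraries. Of 4 tested ligand and receptor genes and 14 signalling genes and transcription factors, 0 passed in either direction in edgeR, with medians of 0.36 and -0.05. At an unadjusted p under 0.05 the ligand and receptor genes gave 0, and the signalling genes 3 higher and 1 lower. DESeq2 called 0 ligand and receptor genes and 2 signalling genes, Irf4 and Klf4, both higher. Irf4, a transcription factor that acts in alternative activation and in dendritic cells, had 6.76, 6.09, 6.56 and 4.30 CPM in KO and 2.02 and 0.894 CPM in WT libraries (1.96 ± 0.39, adjusted p = 0.126). Klf4, another factor of that programme, stood at 0.86 ± 0.23 (adjusted p = 0.245). The lower gene was Kdm6b (-2.19 ± 0.78, adjusted p = 0.328), with 47.3, 18.9, 22.2 and 17.1 CPM in KO and 19.2 and 221 CPM in WT libraries.

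Target genes of IL-4 and IL-13 outside the members were mostly higher in KO libraries by value. Of 15 tested, 14 had positive log2 fold changes (50.2% of all genes), with a median of 1.48, but 0 passed in edgeR. All KO libraries lay above both WT libraries for 11 of them (12.9% of all genes). The same separation was seen for 14 of 15 T and NK cell genes, 11 of 17 dendritic cell genes and 10 of 16 monocyte genes. At an unadjusted p under 0.05, 10 target genes were higher and 0 lower (13.6% of all genes in either direction). DESeq2 called 5 target genes higher (2.31% of all genes): Alox15, Ccl17, Ccl22, Chil3 and Flt1. Ccl22 is also on the dendritic cell list and Chil3 on the monocyte list. Ccl22, a chemokine of macrophages and mature dendritic cells, had 4.53, 4.35, 10.6 and 5.63 CPM in KO and 0.527 and 0.413 CPM in WT (3.69 ± 0.53, adjusted p = 0.0563). Chil3, the chitinase-like protein Ym1, had 6.47, 23.2, 14.5 and 16.3 CPM in KO and 3.01 and 1.86 CPM in WT (2.60 ± 0.53, adjusted p = 0.135). Flt1, a VEGF receptor, stood at 1.84 ± 0.29 (adjusted p = 0.0675) and Alox15, a lipoxygenase, at 2.25 ± 0.47 (adjusted p = 0.14). In the list of IL-10 and glucocorticoid signalling 5 of 10 were positive (median 0.10) and 0 passed in edgeR or DESeq2, with 2 higher and 1 lower at an unadjusted p under 0.05. Il10 itself had 9.28, 12.0, 11.5 and 9.62 CPM in KO libraries, against 7.22 and 2.96 CPM in WT libraries.

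The 28 other resident macrophage genes differed in direction. Of these, 21 were positive and 7 negative, with a median of 0.49, and 0 passed in edgeR, with 5 higher and 2 lower at an unadjusted p under 0.05. DESeq2 called 4 higher (Ccl7, Ccl8, Cd209b and Cd209d) and 1 lower (Fcrls). The chemokines Ccl7 (1.28 ± 0.30, adjusted p = 0.186) and Ccl8 (1.89 ± 0.55, adjusted p = 0.276) lay above WT in every KO library, as did Timd4, a phosphatidylserine receptor of long-lived resident macrophages, at levels near 1 CPM or less (2.61 ± 0.73, adjusted p = 0.264). Fcrls, an Fc receptor-like gene of microglia, lay under WT in every KO library, with 157, 119, 198 and 205 CPM in KO and 361 and 291 CPM in WT (-0.94 ± 0.25, adjusted p = 0.237). Stab1, a scavenger receptor of resident macrophages, also had all KO libraries under WT, with 627, 476, 435 and 411 CPM in KO and 662 and 1057 CPM in WT.

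Marker lists of other cells were set beside the members. The T and NK cell list had a sum between 110 and 165 CPM in KO libraries, against 24.6 and 33.1 CPM in WT libraries. All 15 of its tested genes were positive, and 5 passed in edgeR: Ctla4, Klrk1, Pdcd1, Cd3g and Cd2. DESeq2 called 10 of the 15 higher and 0 lower, and 14 were higher at an unadjusted p under 0.05. In the monocyte list 15 of 16 genes were positive, with a median of 1.76, and 2 passed in edgeR, Ly6c2 and Ms4a4c. At an unadjusted p under 0.05, 10 of the 16 were higher and 0 lower, and DESeq2 called 9 higher. The monocyte sum was between 3364 and 4141 CPM in KO libraries, against 3114 and 4443 CPM in WT libraries. The 2 genes that passed were a minor part of it. Ly6c2 averaged 90.4 CPM in KO and 3.49 CPM in WT, and Ms4a4c 413 and 115 CPM. Of 17 dendritic cell genes 13 were positive and 1 passed in edgeR, Dpp4. Dpp4 had 8.36, 8.90, 9.18 and 8.20 CPM in KO and 2.74 and 2.54 CPM in WT. DESeq2 called 5 of the 17 higher, while 8 were higher and 0 lower at an unadjusted p under 0.05. The sum of the dendritic cell list was between 369 and 562 CPM in KO libraries, against 424 and 654 CPM in WT libraries. Named after their values were seen, Cd209a had 5.98, 2.63, 7.04 and 2.55 CPM in KO and 0.834 and 0 CPM in WT, and Zbtb46 had 3.34, 2.89, 3.59 and 3.20 CPM in KO and 2.24 and 2.41 CPM in WT. Other dendritic cell genes went the other way, as 4 of the 17 were negative, and the sum of the list was highest in WT mouse 2. Eosinophil and mast cell genes had a sum between 6.32 and 11.1 CPM in KO libraries, against 7.60 and 7.77 CPM in WT libraries, with 6 of 9 under 1 CPM everywhere. Of the 7 tested, 4 were positive, and 0 passed in edgeR or DESeq2, with 2 higher at an unadjusted p under 0.05. Of 7 neutrophil genes tested 6 were positive, with a median of 1.97, and 0 passed in edgeR, with 4 higher and 1 lower at an unadjusted p under 0.05. The neutrophil sum was between 56.4 and 75.0 CPM in KO libraries, against 40.4 and 39.0 CPM in WT libraries. Most of it was Csf3r, with 44.8 to 61.6 CPM in KO libraries, against 26.3 and 25.9 CPM in WT libraries. Of 11 neutrophil genes, 8 stayed under 1 CPM everywhere, among them S100a8 and S100a9. The lower gene was Cxcr2 (-0.71 ± 0.21), with 6.08 to 8.87 CPM in KO libraries, against 11.9 and 12.9 CPM in WT libraries. DESeq2 called Csf3r, Ly6g and Retnlg higher, of which Ly6g and Retnlg stayed under 1 CPM everywhere. Of 10 fibroblast genes 6 were positive, with a median of 0.18, and 0 passed in edgeR, with 2 higher and 2 lower at an unadjusted p under 0.05. Their sum was between 2475 and 3951 CPM in KO libraries, against 4159 CPM in WT mouse 1 and 12011 CPM in WT mouse 2. Most of it was Col3a1, with 1836 to 3214 CPM in KO libraries, against 3633 and 11317 CPM in WT libraries, while Thy1 stood at 2.02 ± 0.44 and Dcn at 1.06 ± 0.34. DESeq2 called Thy1 higher and Col3a1 lower. Of 5 tumour epithelial genes in the count table, 4 (Epcam, Krt8, Krt18 and Krt20) stayed under 1 CPM everywhere. Both that were tested, Cdh1 and Epcam, were negative in KO over WT. Neither passed in edgeR, 1 had an unadjusted p under 0.05, and DESeq2 called Cdh1 lower (-1.38 ± 0.36), with 10.9, 10.5, 10.7 and 12.3 CPM in KO libraries, against 15.1 and 43.1 CPM in WT libraries. The part of these cells in the levels of the members was not tested.

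The genes most alike to Mgl2 and Clec10a over the 6 libraries were sought among genes with a mean of at least 5 CPM, by Pearson correlation on log2(CPM + 1), as a description with no test. For Mgl2 they were B4galt4 (0.989), Ear2 (0.983) and Fas (0.980). Ear2, an eosinophil-type ribonuclease that macrophages also express, had 6.83, 10.5, 9.05 and 3.99 CPM in KO and 1.12 and 0 CPM in WT libraries, in the same order of libraries as Mgl2. For Clec10a they were Pop7 (0.958), Ermard (0.949) and Cd24a (0.945). Cd24a, a surface protein found on dendritic cells among others, had 10.7, 10.2, 10.3 and 6.01 CPM in KO and 4.46 and 3.44 CPM in WT, while Pop7 ran over a narrow range of 9.76 to 10.4 CPM.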

How the data were processed

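Total RNA of sorted macrophages was made into TruSeq libraries with ribosomal RNA removed, per the labels' protocols. The deposited values are estimated counts per gene symbol, whole numbers not scaled to depth. The submitters' processing notes name Salmon 0.7.2 and mm10 and give them no role, and neither the transcript set nor the use of strand is stated. Library totals were 20038047 to 40022755. No column was left out.

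Counts were tested with edgeR 4.0.16 (R 4.3.3) after filterByExpr (minimum count 10, minimum total 15) and TMM scaling. KO was set against WT in a fit by genotype, and the clones in a fit with 3 groups, with Benjamini-Hochberg adjustment over all genes. SE is the log2 fold change over the root of F, without its sign. The fits were tested on simulated counts. Unchanged genes made up 6 of 150 calls in KO over WT, 12 of 152 in KO clone 1, 10 of 147 in KO clone 2 and 18 of 155 between the clones. In the 3 contrasts of clones that share was above the threshold of 0.05. In KO over WT, 5 of 50 genes changed by 1 (log2) were recovered, and 40 of 50 changed by 2. The changed genes were drawn from those with a mean over 50 counts, so recovery at lower counts was not covered. Apart from the changed genes, all simulated libraries shared the same mean profile, so a library as unlike the rest as WT mouse 2 was not covered. Alternatives were RLE size factors, DESeq2 1.42.0, no filter, Rn45s left out, a block by mouse number, both clones averaged in the 3-group fit, and each library left out. Replicates are separate mice. In the 3-group fit p-values measure the spread between mice of a group. In the fit by genotype the 4 KO libraries come from 2 clones, so differences between mice and between clones both count as spread. The members and lists were chosen with earlier results of these data known. Named genes were all members, up to 4 genes a list with the smallest p, any that passed, and the 3 most alike to the 2 members of smallest p. Not every gene that met these rules is described. Others, such as Il4, Il13, Stat6, Cd209a, Zbtb46, Stab1 and Pdpn, were added once their values were known. The list symbol Selenop was matched to Sepp1. Promoters are from RefSeq (GRCm38.p6), positions and exon lengths from GENCODE M21 (GRCm38).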

Additional observations from a re-analysis of the deposited data

Results flagged for a closer look

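Clec10a was flagged because 1 of the 4 KO libraries, KO clone 2 mouse 2 at 5.94 CPM, lay far from the other 3 at 22.3 to 24.6 CPM, with a gap of 0.879 of the range of the KO libraries. Siglec1 was flagged in the same way, because KO clone 1 mouse 1 at 611 CPM lay far above the other KO libraries at 276 to 323 CPM, with a gap of 0.858 of the range. The limit for 4 samples is 0.829, and chance flags about 1 group in 20.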

How the results depend on the processing

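No member passed in KO over WT with RLE size factors, with Rn45s left out, with the mouse number as a replicate block or with both clones averaged in the 3-group fit, and DESeq2 called 2 and the fit with no filter 1 (Mgl2). Over the fits that leave out 1 library, 0 to 6 members passed, and the 6 came without WT mouse 1, the fit that rests on WT mouse 2 alone. The count of all genes was 499 with DESeq2, 111 with no filter, 1 with both clones averaged, 15 with the block, and 1 to 6020 with 1 library left out. In KO clone 1 over WT, DESeq2 called 2 members and 271 genes, no filter 3 and 123, the block 0 genes, and leaving out 1 library 0 to 5 members and 0 to 5535 genes. In KO clone 2 over WT, DESeq2 called 1 member and 465 genes, no filter 1 and 229, RLE 9 genes, Rn45s left out 8, the block 0, and leaving out 1 library 0 to 4 members and 0 to 6445 genes. Between the clones DESeq2 called 117 genes, no filter 53, and leaving out 1 library 0 to 87. Members with every KO library above both WT libraries numbered 4 to 9 when 1 library was left out, with 13.8% to 41.4% of all genes, and were 9 without WT mouse 1 (41.4%) and 7 without KO clone 2 mouse 2 (14.2%), an alternative added after seeing the data. The cause was not tested.

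Signs turned only where 1 library was left out. In KO over WT, Mrc1 ran from -0.31 to 0.69 and Lyve1 from -0.14 to 8.61. In KO clone 1 over WT, Mrc1 ran from -0.33 to 0.68. In KO clone 2 over WT, Mrc1 ran from -0.30 to 0.70, Cd163 from -0.63 to 4.84, Lyve1 from -1.89 to 8.30 and Siglec1 from -0.16 to 0.42. Between the clones, Mrc1 ran from -0.23 to 0.25, Mgl2 from -0.54 to 0.19, Folr2 from -1.50 to 0.18, Lyve1 from -2.98 to 0.30, F13a1 from -0.79 to 0.14 and Maf from -0.30 to 0.21. The mouse numbers share no source in the labels, and deviations of same-numbered mice correlated at 0.22, -0.28 and 0.05, so the numbers were not taken as pairs. Fits with a lone library assume that it varies like the others. Levels near 1 count, as for Lyve1 and Retnla in WT mouse 2, limit their fold changes.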
